A study of Mus musculus with 8 samples.

Results

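Prefrontal cortex of Shank3-deficient mice treated with romidepsin was compared with that of wild-type mice, to ask which transcripts still differ from wild type after the drug. The comparison rests on 5 of the 8 poly(A) RNA libraries of the study: the 2 from romidepsin-treated mutants, which are all of that group, and the 3 from wild-type mice. The mutants were heterozygous Shank3+/ΔC males, in which 1 copy of Shank3 lacks its C-terminal part (exon 21), and the wild-type mice were male littermates. All mice were 5 to 6 weeks old per the sample labels, although the series text allows up to 8 weeks. The drug, at 0.25 mg/kg, went into the peritoneum of these mutants 1 time a day on 3 days, with the cortex collected on the day that followed the last injection. The other 3 libraries came from Shank3+/ΔC mice given saline on the same schedule. They entered the estimate of spread and are printed beside the others. The label for treatment is given for the mutants only, and the shared protocol does not say whether wild-type mice were injected. Genotype, drug and, if wild-type mice were not injected, injection differ together between the groups compared and cannot be told apart here. Nothing in the labels says whether each library is 1 animal, so p-values cover library-to-library spread only, which may be technical.

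SHANK3 is a scaffold of the postsynaptic density of excitatory synapses, where it links glutamate receptors to the actin cytoskeleton. Loss of 1 copy in humans is known to cause Phelan-McDermid syndrome, in which autism is frequent. Romidepsin is a cyclic peptide drug that inhibits class I histone deacetylases, the enzymes that remove acetyl groups from histone tails and are mostly linked to lower transcription. The labels give prefrontal cortical slices as the tissue and neurons as the cell type. A marker of cortical neurons was present in every library: Slc17a7, the vesicular glutamate transporter of cortical excitatory neurons, was at 1793, 1540.4 and 1358 CPM in wild type and at 1661 and 1659 CPM with romidepsin. Markers of glia and vessels were also present in every library, so these values are those of whole tissue: the 24 oligodendrocyte and myelin markers summed to between 4171 and 6419 CPM in the wild-type libraries.

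Levels are in CPM, read counts per 1000000 counts on genes after scaling between libraries by edgeR's trimmed mean of M values, and are not corrected for gene length. The wild-type libraries held 12046120, 13280615 and 12460217 counts on genes, and the romidepsin libraries 10143846 and 9855883. Among the 5 libraries compared, wild-type replicate 3 stood apart. Its score on the first principal component, which held 26.6% of the variance over all 8 libraries, was 24.15, against -1.257 to 9.958 for the other 4. Saline replicate 2, which entered the estimate of spread, lay further out on the other side, at -35.09. Of 14809 genes tested, 1 gene (0.00675%) passed an adjusted p of 0.05 in edgeR's quasi-likelihood test with Benjamini-Hochberg adjustment, and it was lower. Without adjustment, 480 genes (3.24%) had a p under 0.05, of which 216 (1.46%) were higher and 264 (1.78%) lower with romidepsin than in wild type. If no gene differed between the groups, a share of about 0.05 would reach such a p, so 3.24% is no excess. Both romidepsin libraries lay outside the range of all 3 wild-type libraries for 2728 genes (18.4%), 1383 (9.34%) above and 1345 (9.08%) below. If the group labels carried no information, a share of about 0.1 would lie above and 0.1 below. These shares are no larger than that, so a lack of overlap alone does not mark a difference. The log2 fold change was above 0 for 7407 genes and below it for 7402 (50% each). The median log2 fold change of all genes tested was 0.0, with quartiles at -0.101 and 0.086. TMM scaling centres these values, so they cannot show a shift of all genes together. An exact permutation test of 2 libraries against 3 cannot give a two-sided p below 0.1, so single genes were judged by the fit across all genes.

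Shank3 (chr15:89499623-89560261) was at 299, 308 and 348 CPM in wild type, 315 and 313 CPM with romidepsin and 316, 252 and 301 CPM with saline, a log2 difference of -0.02 (SE 0.10) between romidepsin and wild type that turned to 0.039 without wild-type replicate 3. These counts cover all exons of the gene, of which the mutant copy keeps all but the deleted part, so they do not check the genotype of the libraries. Rabl2, a GTPase of cilia whose gene lies next to Shank3 (chr15:89582533-89591923), was at 25.5, 26.1 and 22.1 CPM in wild type and 17.6 and 17.4 CPM with romidepsin (log2 difference -0.49, SE 0.12, unadjusted p = 0.00126, edgeR adjusted p = 0.999). With saline Rabl2 was at 16.8, 17.1 and 17.6 CPM, so every mutant library lay below every wild-type library. Its difference from wild type lay between -0.57 and -0.45 in all 18 alternatives, none of which passed.

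The gene that passed was Tmem181b-ps, a transcribed pseudogene copy of Tmem181a in a duplicated block of chromosome 17 (chr17:6438524-6467022, minus strand, GENCODE annotation of GRCm38). Tmem181a, the protein-coding copy, encodes a multipass membrane protein and lies at chr17:6256860-6308314 on the plus strand. Alignments that were not unique were left out of the counts, so reads from stretches shared by the copies may be missing. The sequences are shown where the transcripts Tmem181a-201 (bases 122 to 241) and Tmem181b-ps-201 (bases 1 to 120) run side by side, with differing bases in capitals.
Tmem181a: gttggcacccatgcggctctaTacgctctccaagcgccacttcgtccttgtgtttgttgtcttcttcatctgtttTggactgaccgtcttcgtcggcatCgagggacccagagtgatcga
Tmem181b-ps: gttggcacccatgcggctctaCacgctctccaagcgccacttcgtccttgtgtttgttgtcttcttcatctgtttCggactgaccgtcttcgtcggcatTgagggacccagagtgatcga
In these 120 bases, chosen as the coding stretch of that length with the most differing bases, 3 differed. Over the 1413 bases of Tmem181b-ps-201 that aligned to Tmem181a-201, 1406 were identical (99.5%) and 7 differed. Over all annotated transcripts, 44.4% of the distinct 50-base windows of Tmem181b-ps also occurred in Tmem181a, and 28.3% of those of Tmem181a occurred in Tmem181b-ps. The counts of both genes are therefore uncertain as measures of either copy alone.

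Tmem181b-ps was at 165, 195 and 222 CPM in wild-type replicates 1 to 3 and at 85.6 and 85.5 CPM in the romidepsin libraries, a log2 fold change of -1.18 (SE 0.15, edgeR adjusted p = 0.0344). The saline libraries were at 91.2, 63.8 and 75.7 CPM, so all 5 mutant libraries lay below all 3 wild-type libraries. The difference kept its direction in all 18 alternative analyses, between -1.29 and -1.08, and passed in 11 of them. It did not pass with upper-quartile scaling, with the replicate number as a block, or without wild-type replicate 2 or 3, saline replicate 3 or either romidepsin library (edgeR adjusted p 0.0532 to 0.388). Without romidepsin replicate 2 the adjusted p was 0.388, with 1 library left in that group.

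Tmem181a was at 70.0, 72.8 and 72.4 CPM in wild type and 56.0 and 54.1 CPM with romidepsin, a log2 difference of -0.38 (SE 0.09, unadjusted p = 5.94e-04, edgeR adjusted p = 0.999). The saline libraries were at 54.2, 50.2 and 56.6 CPM, so all 5 mutant libraries lay below wild type for this copy as well. Of its exonic bases 8.86% are also exonic in Dynlt1a on the opposite strand. Another copy, the pseudogene Tmem181c-ps, was lower too (log2 difference -0.94, SE 0.30, unadjusted p = 0.00728), at 5.73, 7.83 and 9.25 CPM in wild type and 4.63 and 3.29 CPM with romidepsin. Genes that flank the block were close to wild type: Tulp4, at 243, 245 and 277 CPM in wild type and 259 and 253 CPM with romidepsin, differed by 0.0024 on the log2 scale, and Ezr, which encodes the membrane-to-actin linker ezrin, by 0.10. Of the dynein light chain genes in the block, Dynlt1a differed by -0.10, and Dynlt1b by -1.24 on counts of 22, 17 and 29 in wild type and 8 and 7 with romidepsin.

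**Figure D1:**
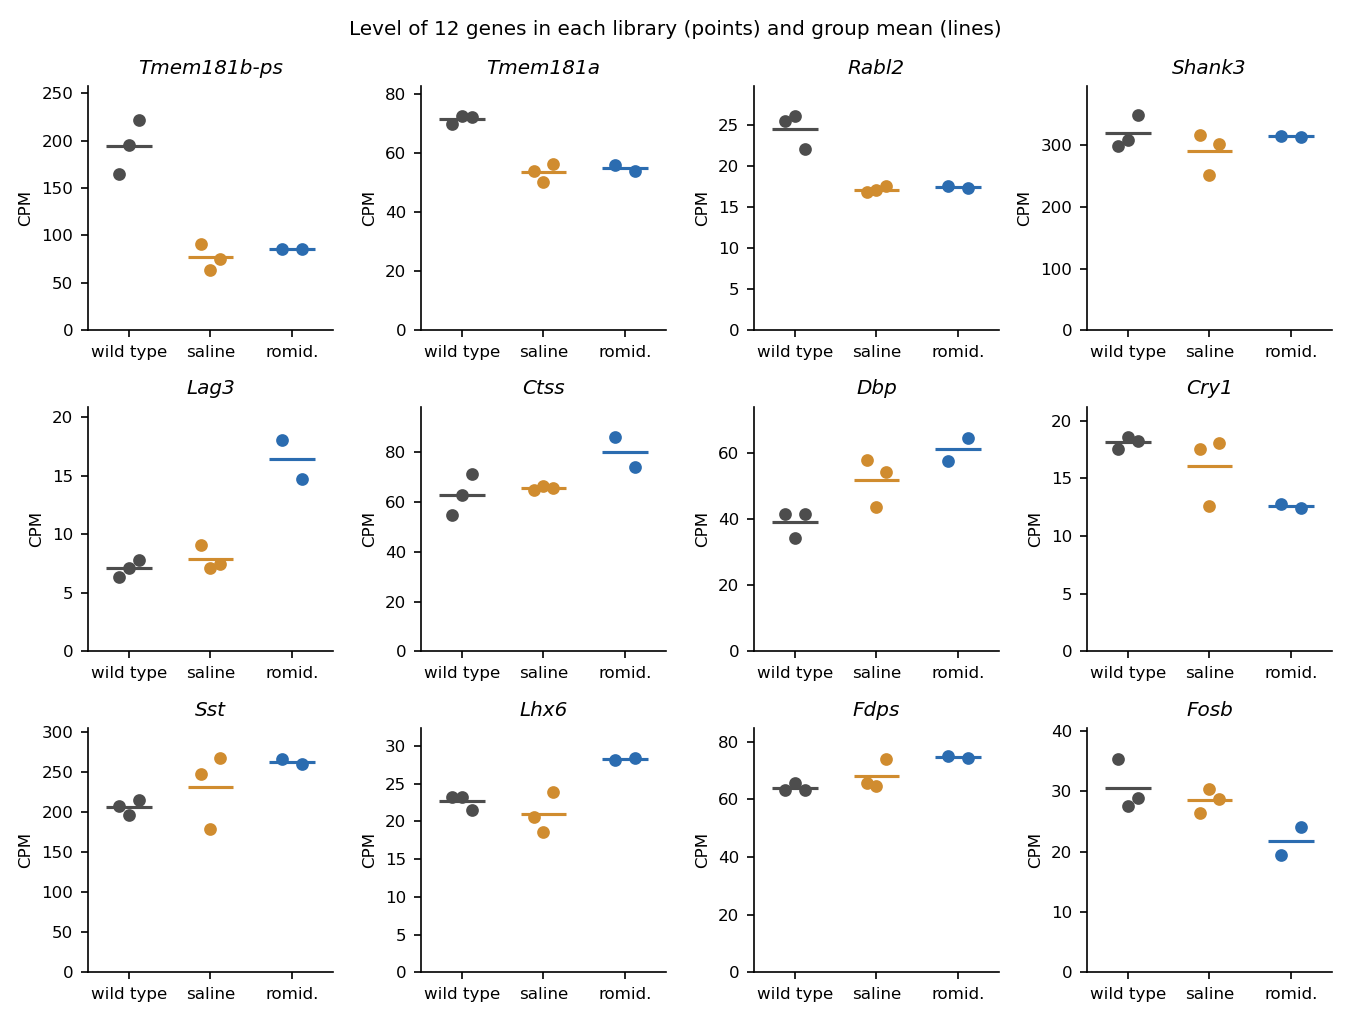
Level in CPM (vertical axis, linear from 0) of 12 genes in each library (points), with the mean of each group (line), for wild type, saline-treated and romidepsin-treated mutants (romid.). Tmem181b-ps, Tmem181a and Rabl2 are lower in all 5 mutant libraries than in wild type, while Lag3 is highest in the 2 romidepsin libraries.

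None of the class I histone deacetylases that romidepsin inhibits passed in edgeR. Hdac1 was at 23.4, 24.1 and 24.2 CPM in wild type and 23.6 and 19.7 CPM with romidepsin (log2 difference -0.14). Hdac2 was at 76.3, 74.5 and 62.7 CPM in wild type and 78.5 and 74.2 CPM with romidepsin (log2 difference 0.10), and Hdac3 at 75.5, 71.3 and 72.7 CPM in wild type and 75.7 and 68.9 CPM with romidepsin (log2 difference -0.02), and the libraries of the groups overlapped for these 3 enzymes. Hdac8, the remaining class I enzyme, was at 12.1, 11.7 and 11.8 CPM in wild type and 7.78 and 9.98 CPM with romidepsin, without overlap (log2 difference -0.42, SE 0.16, unadjusted p = 0.0221). Ctnnb1, which encodes beta-catenin, was at 540.3, 528 and 565 CPM in wild type and 567 and 574 CPM with romidepsin (log2 difference 0.07). With saline it was at 606, 621 and 607 CPM, so the 5 mutant libraries were above wild type. Among 24 class I histone deacetylases and corepressors, 12 were higher and 12 lower, and the median was -0.007. The 13 class II and IV deacetylases and sirtuins had a median of 0.020, and in it Hdac7 was at 25.4, 25.8 and 36.2 CPM in wild type and 23.8 and 19.1 CPM with romidepsin (log2 difference -0.44, unadjusted p = 0.0469).

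Lag3 (chr6:124904361-124911705), a checkpoint receptor of lymphocytes that microglia also transcribe, was the gene closest to passing in the upward direction. It was at 6.32, 7.16 and 7.84 CPM in wild-type replicates 1 to 3 and at 18.0 and 14.7 CPM in the romidepsin libraries, a log2 difference of 1.20 (SE 0.18, edgeR adjusted p = 0.0567). With saline it was at 9.11, 7.13 and 7.44 CPM, so the lower romidepsin library was above all 6 libraries without the drug. Lag3 passed without the low-count filter (edgeR adjusted p = 0.00826), in DESeq2 (adjusted p = 0.00116) and without wild-type replicate 3 (edgeR adjusted p = 0.0392). Over all 18 alternatives its log2 difference lay between 1.05 and 1.34 and its adjusted p between 0.00116 and 0.799.

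Microglia, the resident phagocytes of the brain, survey tissue through purinergic receptors and clear debris through complement and lysosomal proteases. Of the 20 microglia markers tested, 18 were higher with romidepsin than in wild type and 2 lower, with a median log2 difference of 0.152 against 0.0 for all genes. None passed an adjusted p of 0.05, 5 had an unadjusted p under 0.05, all higher (background 1.46%), and 5 did not overlap, all higher (background 9.34%). Lag3, described above, is on this list and in both counts of 5, so the list is not separate from it. Ctss, the lysosomal protease cathepsin S, was at 54.7, 62.7 and 71.3 CPM in wild type and 86.1 and 74.1 CPM with romidepsin (log2 difference 0.35, SE 0.11, unadjusted p = 0.00587). Trem2, a lipid-sensing receptor of microglia, was at 9.52, 9.19 and 11.3 CPM in wild type and 18.0 and 11.4 CPM with romidepsin (log2 difference 0.56), so romidepsin replicate 2 was barely above the highest wild-type library. C1qa, a chain of the complement starter C1q, was at 38.2, 43.1 and 55.9 CPM in wild type and 56.1 and 56.0 CPM with romidepsin (log2 difference 0.29). The romidepsin values of C1qa lay just above wild-type replicate 3, the highest of its group.

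Among members with overlap, Cx3cr1, the fractalkine receptor, was at 57.8, 60.6 and 75.6 CPM in wild type and 71.3 and 65.9 CPM with romidepsin (log2 difference 0.08), and P2ry12, an ADP receptor, at 37.6, 42.3 and 53.9 CPM in wild type and 48.8 and 44.3 CPM with romidepsin (log2 difference 0.06). The summed level of the 20 markers was 721, 784 and 988 CPM in wild type and 1005 and 878 CPM with romidepsin, and none was at 0 in any library. In whole tissue, more cells of a type and more RNA per cell cannot be told apart. The median over the list was 0.057 without romidepsin replicate 1, 0.072 without wild-type replicate 1, 0.244 without wild-type replicate 3 and 0.270 without romidepsin replicate 2, with 13 to 20 of the 20 genes higher.

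Other genes higher with romidepsin had unadjusted p-values between 1.34e-04 and 0.00559, with an edgeR adjusted p of 0.661 or above. Among the 15 with the smallest p the libraries of the groups did not overlap, against 9.34% above wild type over all genes tested. These genes were chosen by p from the same libraries, so their lack of overlap is no separate result. Mpeg1, the pore-forming protein perforin-2 of macrophages, was at 32.3, 33.1 and 36.2 CPM in wild type and 49.7 and 41.8 CPM with romidepsin (log2 difference 0.43, SE 0.11). P2ry6, a UDP receptor of phagocytes, was at 1.60, 1.88 and 2.59 CPM in wild type and 3.84 and 4.12 CPM with romidepsin (log2 difference 0.97, SE 0.30). These 2 genes are, like Lag3, genes of macrophages and microglia by textbook knowledge, but unlike Lag3 they were not on the marker list.

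Several neuronal signalling genes were in the same group of 15. Penk, the precursor of enkephalin peptides, was at 29.6, 24.9 and 32.8 CPM in wild type and 40.7 and 42.4 CPM with romidepsin (log2 difference 0.51, SE 0.13). Hrh3, the presynaptic histamine H3 receptor, was at 103, 84.4 and 94.8 CPM in wild type and 119 and 113 CPM with romidepsin (log2 difference 0.30). Grin3a, a subunit that lowers the calcium permeability of NMDA receptors, was at 62.9, 60.5 and 66.2 CPM in wild type and 78.3 and 79.5 CPM with romidepsin (log2 difference 0.32, SE 0.10). In saline against wild type, 12.6% of all genes tested did not overlap (6.26% higher, 6.36% lower). For Grin3a the saline libraries, at 84.5, 71.1 and 68.5 CPM, also lay above wild type, whereas for Hrh3, at 94.1, 97.8 and 99.7 CPM, they lay within its range.

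Genes of growth and the cytoskeleton were present too. Marcksl1, an actin-binding substrate of protein kinase C, was at 78.6, 70.3 and 64.5 CPM in wild type and 87.4 and 102 CPM with romidepsin (log2 difference 0.41). Dpysl3, a collapsin response mediator of growth cones, was at 53.2, 58.4 and 63.3 CPM in wild type and 68.1 and 78.9 CPM with romidepsin (log2 difference 0.33), and Lingo2, a leucine-rich repeat membrane protein of neurons, at 20.5, 21.8 and 21.3 CPM in wild type and 28.7 and 28.1 CPM with romidepsin (log2 difference 0.42). With saline Marcksl1 was at 95.9, 97.9 and 83.2 CPM and Dpysl3 at 75.2, 77.7 and 72.1 CPM, above wild type in all 3 libraries. Wnt7b, a secreted Wnt ligand, was at 56.0, 51.6 and 45.4 CPM in wild type and 65.5 and 66.1 CPM with romidepsin (log2 difference 0.37), and Rbp4, the retinol carrier of plasma, at 19.5, 18.5 and 18.1 CPM in wild type and 26.7 and 26.9 CPM with romidepsin (log2 difference 0.52). Tmem169 (log2 difference 0.52), the ribosomal protein gene Rps2 (log2 difference 0.33) and the low-count guanylate cyclase gene Gucy2e (log2 difference 0.97) complete the group.

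**Figure D2:**
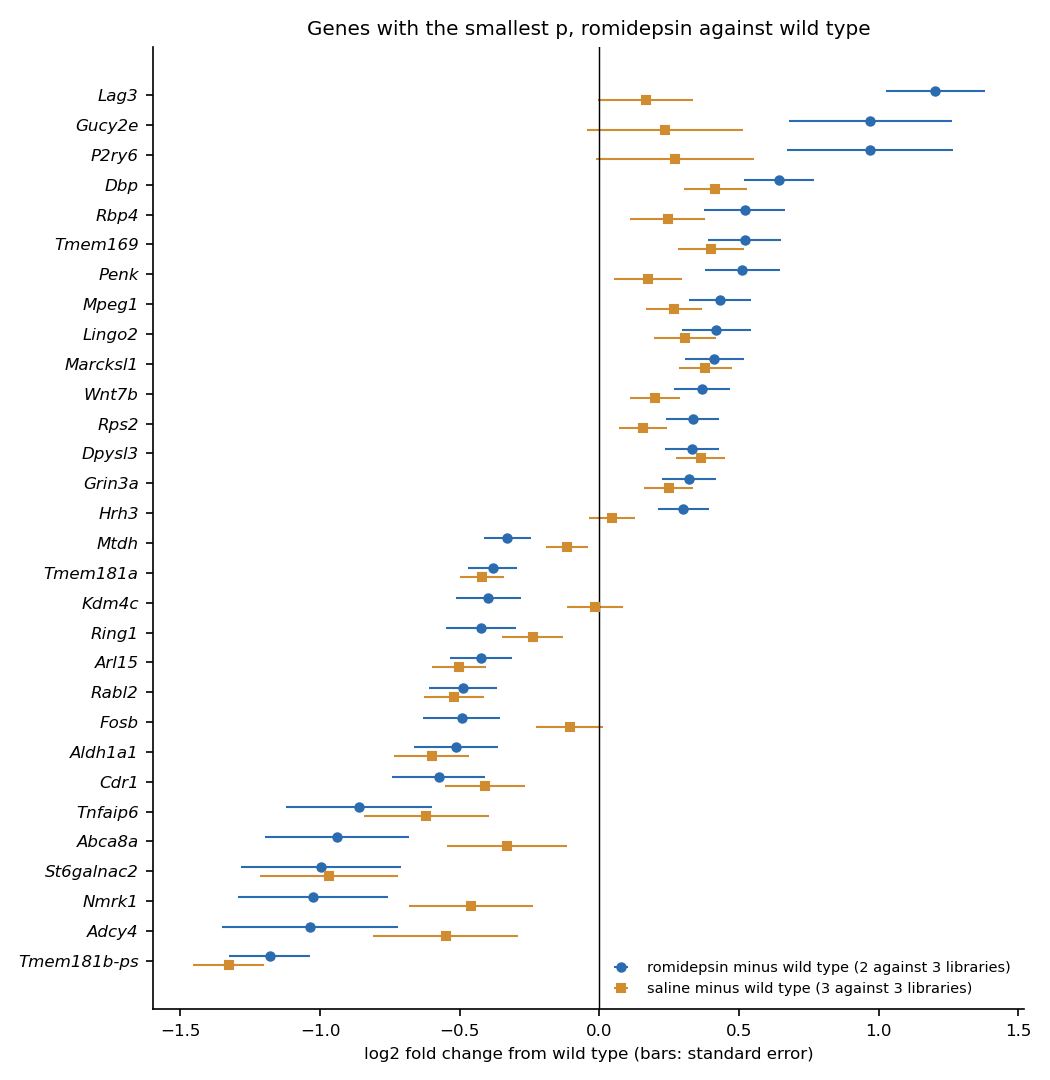
Log2 fold change from wild type (horizontal axis) of the 15 genes with the smallest p in each direction for romidepsin against wild type (circles), with saline against wild type beside it (squares), and bars of 1 standard error. Both comparisons use the same wild-type libraries; Lag3, Gucy2e and P2ry6 sit near wild type with saline, and Tmem181b-ps and Rabl2 lie at -1.33 and -0.52 with saline.

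Genes lower with romidepsin at the smallest p, after the Tmem181 copies and Rabl2, came from several functions and had an edgeR adjusted p of 0.999. Mtdh, an RNA-binding protein of the endoplasmic reticulum membrane, was at 86.4, 84.3 and 81.0 CPM in wild type and 69.3 and 64.1 CPM with romidepsin (log2 difference -0.33, SE 0.08). Arl15, a small GTPase, was at 55.8, 50.5 and 54.2 CPM in wild type and 41.7 and 38.1 CPM with romidepsin (log2 difference -0.42, SE 0.11), with saline at 40.3, 40.03 and 32.4 CPM. The group held 2 chromatin genes. Kdm4c, a demethylase of histone H3 lysine marks, was at 25.2, 28.7 and 25.8 CPM in wild type, 21.4 and 18.9 CPM with romidepsin and 26.3, 27.1 and 25.4 CPM with saline (log2 difference -0.40). Ring1, a ubiquitin ligase of Polycomb repressive complex 1, was at 26.5, 27.2 and 27.8 CPM in wild type, 21.9 and 18.6 CPM with romidepsin and 22.9, 20.5 and 25.8 CPM with saline (log2 difference -0.42). Saline libraries lay within the wild-type range for Kdm4c and below it for Ring1.

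Fosb, a neuronal activity-induced subunit of the transcription factor AP-1, was at 35.4, 27.6 and 28.8 CPM in wild type and 19.4 and 24.1 CPM with romidepsin (log2 difference -0.49, SE 0.14), with saline at 26.4, 30.4 and 28.7 CPM. The romidepsin libraries were the lowest of the 8 for this gene. Aldh1a1, a retinaldehyde dehydrogenase that makes retinoic acid, was at 14.6, 18.2 and 17.6 CPM in wild type and 11.8 and 11.7 CPM with romidepsin (log2 difference -0.51), and the saline libraries at 10.3, 11.8 and 11.3 CPM. Cdr1 was at 22.2, 30.8 and 32.2 CPM in wild type and 16.7 and 21.5 CPM with romidepsin (log2 difference -0.57), but all of its exonic bases are also exonic in C230004F18Rik on the opposite strand, and the strand setting of the counting was not stated. The 5 genes of the lowest level were Nmrk1, a nicotinamide riboside kinase (log2 difference -1.02), Abca8a, a lipid transporter (log2 difference -0.94), St6galnac2, a sialyltransferase (log2 difference -0.998), Adcy4, an adenylyl cyclase (log2 difference -1.03), and Tnfaip6, a hyaluronan-binding secreted protein (log2 difference -0.86). For Nmrk1 the levels were 5.47, 6.63 and 7.21 CPM in wild type and 3.84 and 2.47 CPM with romidepsin.

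The 10 genes with the smallest p in saline against wild type, pseudogenes such as Tmem181b-ps and predicted genes left out, were then read in the romidepsin libraries. They were chosen by their saline values, and the wild-type libraries are shared, so their position is a description. All 10 lay below wild type with romidepsin, by -0.612 to -0.086 on the log2 scale, against -1.093 to -0.42 with saline. Of them, 8 lay below all wild-type libraries, but the 9.08% over all genes is no background for genes so chosen. A choice by saline values also favours larger differences with saline than with romidepsin, so the smaller ones with romidepsin do not show a return towards wild type. Tanc1, a scaffold of the postsynaptic density, was at 23.0, 22.1 and 25.8 CPM in wild type, 14.2, 13.5 and 13.6 CPM with saline and 15.5 and 19.7 CPM with romidepsin. Cdh24, a cadherin, was at 12.1, 10.5 and 13.6 CPM in wild type, 5.50, 3.67 and 8.08 CPM with saline and 8.18 and 7.61 CPM with romidepsin, and thus the furthest below wild type of the 10 with romidepsin (log2 difference -0.61). Cbfa2t3, a transcriptional corepressor that binds histone deacetylases, was at 58.0, 56.9 and 60.5 CPM in wild type, 42.2, 39.8 and 37.7 CPM with saline and 47.5 and 51.5 CPM with romidepsin, so the romidepsin libraries lay between the other groups. Banp, a nuclear DNA-binding protein, was at 33.7, 38.9 and 39.98 CPM in wild type, 26.7, 22.5 and 19.5 CPM with saline and 30.3 and 32.5 CPM with romidepsin, also between them. Prss23, a serine protease, was at 37.2, 32.4 and 29.6 CPM in wild type, 18.2, 19.6 and 22.7 CPM with saline and 29.7 and 32.5 CPM with romidepsin, and its romidepsin libraries lay within the wild-type range. None of the 10 passed between romidepsin and saline in edgeR (smallest adjusted p 1.0). The others were Tmem181a and Arl15, given above, Gse1 (log2 difference -0.22), Adgrl4 (log2 difference -0.25) and Plekha2 (log2 difference -0.16).

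The circadian clock runs on a loop in which the activators CLOCK and BMAL1 (encoded by Arntl) drive Per and Cry genes through E-boxes, and PER and CRY proteins repress them. Output factors such as DBP carry the rhythm to other genes through D-boxes. To show the elements in question, 300-base promoter windows (RefSeq, GRCm38.p6, 250 bases before and 50 after the start) of the clock genes Dbp, Ciart and Cry1 are printed 5′ to 3′ with the E-box CACGTG in capitals. They are chr7:45704997-45705296 on the plus strand, chr3:95882179-95882478 on the minus strand and chr10:85185005-85185304 on the minus strand.
Dbp: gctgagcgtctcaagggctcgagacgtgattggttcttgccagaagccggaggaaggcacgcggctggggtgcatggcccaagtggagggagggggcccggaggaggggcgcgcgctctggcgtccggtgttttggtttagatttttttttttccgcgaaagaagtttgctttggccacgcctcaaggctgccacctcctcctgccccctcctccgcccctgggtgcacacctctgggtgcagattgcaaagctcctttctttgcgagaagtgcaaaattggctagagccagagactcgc
Ciart: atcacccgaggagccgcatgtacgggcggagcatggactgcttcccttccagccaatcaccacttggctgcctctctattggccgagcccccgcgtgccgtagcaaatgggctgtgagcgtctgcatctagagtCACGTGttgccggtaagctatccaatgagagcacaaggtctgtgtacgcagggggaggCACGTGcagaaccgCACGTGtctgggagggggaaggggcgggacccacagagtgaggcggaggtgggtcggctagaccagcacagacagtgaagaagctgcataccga
Cry1: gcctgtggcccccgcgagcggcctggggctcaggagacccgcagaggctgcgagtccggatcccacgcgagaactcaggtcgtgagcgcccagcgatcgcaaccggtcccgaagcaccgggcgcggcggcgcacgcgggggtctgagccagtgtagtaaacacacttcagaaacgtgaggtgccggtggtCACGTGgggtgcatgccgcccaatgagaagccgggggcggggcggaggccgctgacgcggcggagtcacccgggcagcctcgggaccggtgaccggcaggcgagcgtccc
The Ciart window held 3 matches, the Cry1 window 1 and the Dbp window 0. CACGTG, which reads the same on both strands, occurred in 2349 of 32851 promoter windows (7.15%) and in those of 5 of the 18 clock genes in the table (Bhlhe41, Ciart, Cry1, Per1 and Tef). The D-box searched, TTANGTAA on either strand, occurred in 763 windows (2.32%) and in those of Per3 and Rorb. Windows of Lag3 and Tmem181b-ps were not used here.

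Dbp was at 41.5, 34.3 and 41.7 CPM in wild type, 57.8 and 64.6 CPM with romidepsin and 57.9, 43.8 and 54.5 CPM with saline. The saline libraries also lay above wild type. Its log2 difference between romidepsin and wild type was 0.64 (SE 0.12, edgeR adjusted p = 0.661, DESeq2 adjusted p = 0.0328). Of its exonic bases 18.0% overlap exons of Sphk2 on the opposite strand, whose reads may be included. Ciart, a repressor of CLOCK and BMAL1, was at 5.81, 7.16 and 7.37 CPM in wild type and 8.37 and 10.6 CPM with romidepsin (log2 difference 0.48, unadjusted p = 0.0238). Cry1, a core repressor, was lower, at 17.5, 18.6 and 18.3 CPM in wild type and 12.8 and 12.5 CPM with romidepsin (log2 difference -0.52, SE 0.16, unadjusted p = 0.00537), and Arntl was at 46.9, 49.8 and 48.9 CPM in wild type and 42.8 and 37.6 CPM with romidepsin (log2 difference -0.27). These 4 genes did not overlap between the groups. Over the list, 12 of 21 genes were higher and 9 lower (median 0.063), 4 had an unadjusted p under 0.05 (background 3.24%), and 7 lay above and 3 below all wild-type libraries (background 9.34% and 9.08%). Per1 was at 120.3, 122 and 124 CPM in wild type and 126 and 147 CPM with romidepsin, Nr1d1, a repressor of Arntl, at 207, 181 and 217 CPM in wild type and 230.1 and 223 CPM with romidepsin, and Per2, with overlap, at 56.7, 70.6 and 60.0 CPM in wild type and 53.2 and 68.3 CPM with romidepsin. The hour of tissue collection is not given in the labels, and its part in these values was not tested.

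Inhibitory neurons of the cortex make GABA through the enzymes encoded by Gad1 and Gad2 and fall into classes marked by somatostatin, parvalbumin, VIP and others. Of 26 inhibitory neuron markers, 24 were higher with romidepsin than in wild type and 2 lower, with a median of 0.155. None passed an adjusted p of 0.05, 5 had an unadjusted p under 0.05, all higher (background 1.46%), and 9 lay above all wild-type libraries (background 9.34%). Sst, which encodes somatostatin, was at 207, 196 and 215 CPM in wild type and 265 and 260.0 CPM with romidepsin (log2 difference 0.35, SE 0.13, unadjusted p = 0.0189). Lhx6, the transcription factor of interneurons from the medial ganglionic eminence, was at 23.2, 23.2 and 21.6 CPM in wild type and 28.1 and 28.4 CPM with romidepsin (log2 difference 0.32, SE 0.12). Npy, a peptide of the somatostatin class and others, was at 66.4, 71.5 and 70.9 CPM in wild type and 81.0 and 84.4 CPM with romidepsin (log2 difference 0.25), and Crhbp, which binds corticotropin-releasing hormone, at 22.3, 21.1 and 24.2 CPM in wild type and 27.8 and 31.5 CPM with romidepsin (log2 difference 0.39). For each of these 4 genes both romidepsin libraries were above the wild-type range, and for Crhbp, at 32.6, 26.9 and 33.5 CPM, the saline libraries were too.

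Gad2 was at 172, 173 and 179.7 CPM in wild type and 196 and 199 CPM with romidepsin (log2 difference 0.18), and Gad1 at 312, 302 and 322 CPM in wild type and 326 and 331 CPM with romidepsin (log2 difference 0.07). Pvalb, the calcium buffer of fast-spiking cells, was at 36.6, 41.9 and 31.4 CPM in wild type and 38.5 and 40.03 CPM with romidepsin (log2 difference 0.10), and Vip at 48.9, 47.4 and 50.2 CPM in wild type and 52.5 and 49.0 CPM with romidepsin (log2 difference 0.06), both with overlap. With saline, Sst was at 247, 178 and 267 CPM and Lhx6 at 20.5, 18.7 and 23.9 CPM, and the list's median against wild type was 0.031. The median of the list with romidepsin stayed positive without each library in turn, between 0.126 and 0.254. Summed over the list, levels were 2125, 2078 and 2201 CPM in wild type and 2411 and 2356 CPM with romidepsin.

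**Figure D3:**
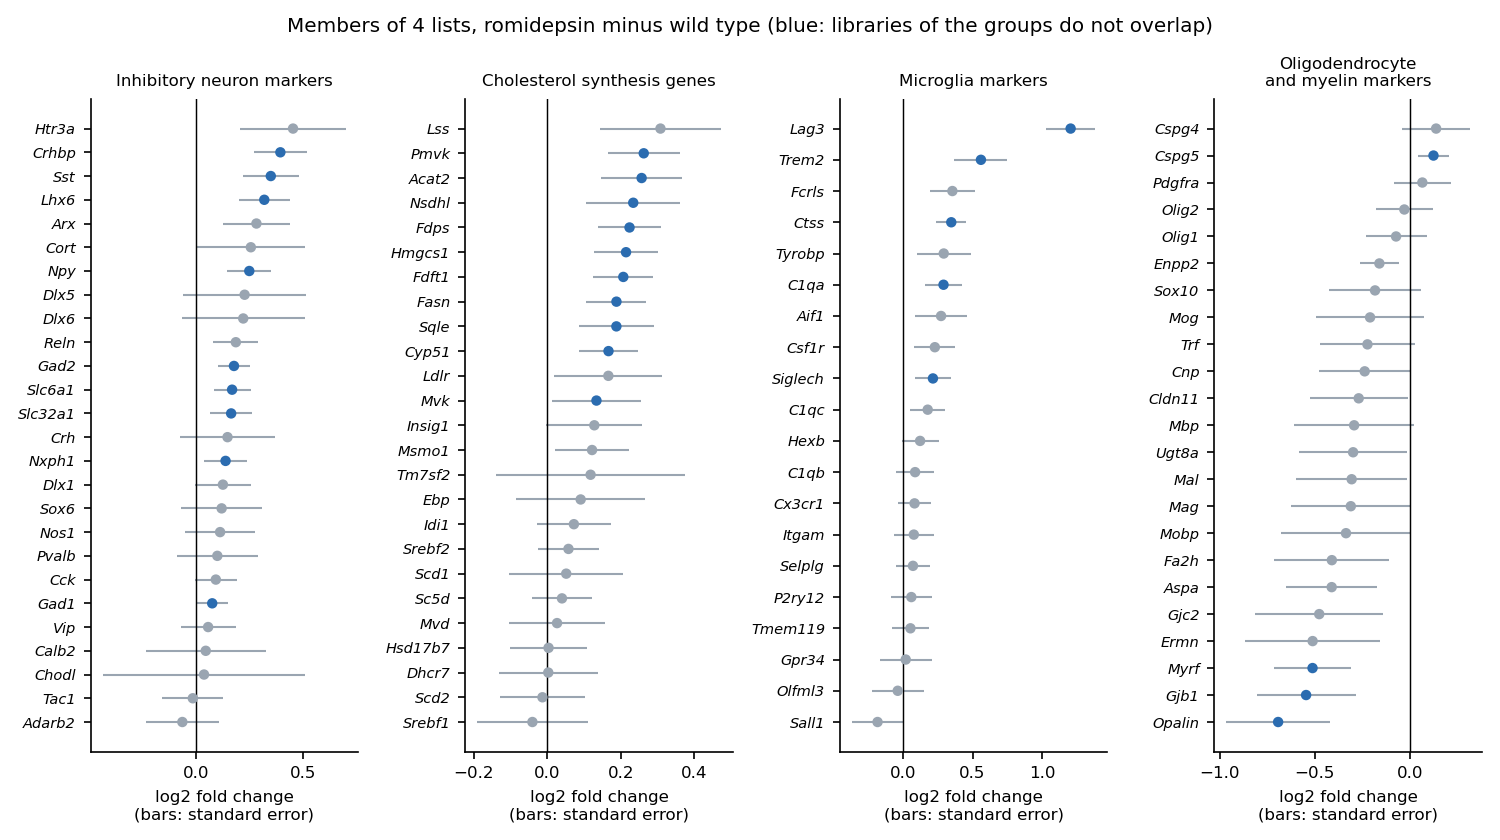
Log2 fold change of romidepsin against wild type (horizontal axis, bars of 1 standard error) for members of 4 lists (a few members are not shown), in blue where the libraries of the groups do not overlap. Most inhibitory neuron, cholesterol synthesis and microglia genes lie above 0, and most oligodendrocyte genes below it, with bars that often reach 0.

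Cholesterol in the brain is made locally, through the mevalonate pathway from acetyl-CoA to lanosterol and on to cholesterol. Of 27 genes of cholesterol and linked fatty acid synthesis, 25 were higher with romidepsin and 2 lower, with a median of 0.128. None passed an adjusted p of 0.05, 7 had an unadjusted p under 0.05, all higher (background 1.46%), and 12 lay above all wild-type libraries (background 9.34%). Hmgcs1, which makes HMG-CoA, was at 384, 377 and 348 CPM in wild type and 454 and 403 CPM with romidepsin (log2 difference 0.21). Fdps, which makes farnesyl pyrophosphate, was at 63.2, 65.5 and 63.1 CPM in wild type and 75.1 and 74.3 CPM with romidepsin (log2 difference 0.22, SE 0.09). Fdft1, which joins it into squalene, was at 110.3, 108 and 99.6 CPM in wild type and 126 and 118 CPM with romidepsin (log2 difference 0.21). Both romidepsin libraries were above the wild-type range for these 3 genes. The saline libraries were above it too for Hmgcs1, at 421, 402 and 441 CPM, and for Fdft1, at 116, 121 and 124 CPM.

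Fasn, the fatty acid synthase, was at 389, 386 and 385 CPM in wild type and 453 and 428 CPM with romidepsin (log2 difference 0.19), with saline at 399, 358 and 402 CPM. With saline the median of the list against wild type was 0.087, with 21 of 27 higher. Dropping romidepsin replicate 1 left 19 of 27 higher (median 0.108), and dropping romidepsin replicate 2 gave 0.210. Summed over the list, levels were 4027, 4209 and 4428 CPM in wild type and 4670 and 4297 CPM with romidepsin. By this sum romidepsin replicate 2 lay within the wild-type range.

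Oligodendrocytes wrap axons in myelin, and most of their markers were lower, but the summed level of the list overlapped between the groups. Of 24 oligodendrocyte and myelin markers, 21 were lower with romidepsin than in wild type and 3 higher (median -0.281). None passed an adjusted p of 0.05, 2 had an unadjusted p under 0.05 (background 1.78% lower), and 3 lay below and 1 above all wild-type libraries (background 9.08% and 9.34%). Opalin, a membrane protein of myelin-forming cells, was at 8.84, 14.6 and 12.1 CPM in wild type and 7.88 and 6.79 CPM with romidepsin (log2 difference -0.69, SE 0.27, unadjusted p = 0.0247). Myrf, the transcription factor that switches on myelin genes, was at 31.1, 49.0 and 44.1 CPM in wild type and 29.3 and 28.9 CPM with romidepsin (log2 difference -0.51). The abundant myelin gene Mbp overlapped between the groups, at 1348, 2172 and 2138 CPM in wild type and 1443 and 1635 CPM with romidepsin. Wild-type replicate 1 had less of it than either romidepsin library. Summed over the list, levels were 4171, 6419 and 6348 CPM in wild type and 4525 and 5044 CPM with romidepsin, so wild-type replicate 1 was again lowest. The progenitor markers Pdgfra and Cspg4 were at 0.07 and 0.14 on the log2 scale, higher than wild type on average. The median of the list was -0.112 with the replicate number as a block and -0.477 without wild-type replicate 1. It was -0.164 without romidepsin replicate 1, -0.167 without wild-type replicate 2 and -0.187 without wild-type replicate 3. In saline against wild type, 21 of the 24 were lower as well (median -0.121).

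Meningeal and fibroblast markers had the highest median of the 32 lists in romidepsin against wild type, at 0.283, with 20 of 21 higher, 2 with an unadjusted p under 0.05, both higher (background 1.46%), and 4 above all wild-type libraries (background 9.34%). With saline the median against wild type was 0.678, also with 20 of 21 higher. Mgp, matrix Gla protein, was at 7.83, 7.46 and 9.02 CPM in wild type, 19.5 and 10.1 CPM with romidepsin and 21.0, 19.7 and 10.3 CPM with saline. Slc47a1, a transporter of meningeal cells, was at 1.26, 0.979 and 0.706 CPM in wild type and 1.77 and 2.88 CPM with romidepsin. The libraries of each group varied widely for this list: its summed level was 532, 496 and 809 CPM in wild type and 773 and 629.6 CPM with romidepsin. Without romidepsin replicate 1 the median was 0.036, 0.188 without wild-type replicate 2, 0.474 without romidepsin replicate 2 and 0.510 without wild-type replicate 3. The part of meninges in other results was not tested.

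Of 30 endothelial and pericyte markers, 11 were higher and 19 lower with romidepsin than in wild type (median -0.031), and the median with saline was -0.278. The median turned to 0.033 without wild-type replicate 3 and to 0.103 without romidepsin replicate 2. Tie1, an endothelial receptor, was at 10.8, 11.1 and 12.9 CPM in wild type and 9.16 and 7.82 CPM with romidepsin (log2 difference -0.45, unadjusted p = 0.0269). Flt1, a VEGF receptor, was at 56.5, 59.5 and 69.4 CPM in wild type, 56.1 and 48.8 CPM with romidepsin and 47.8, 31.9 and 38.3 CPM with saline. For Flt1 the romidepsin libraries stood between the other groups, just below the wild-type range.

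**Figure D4:**
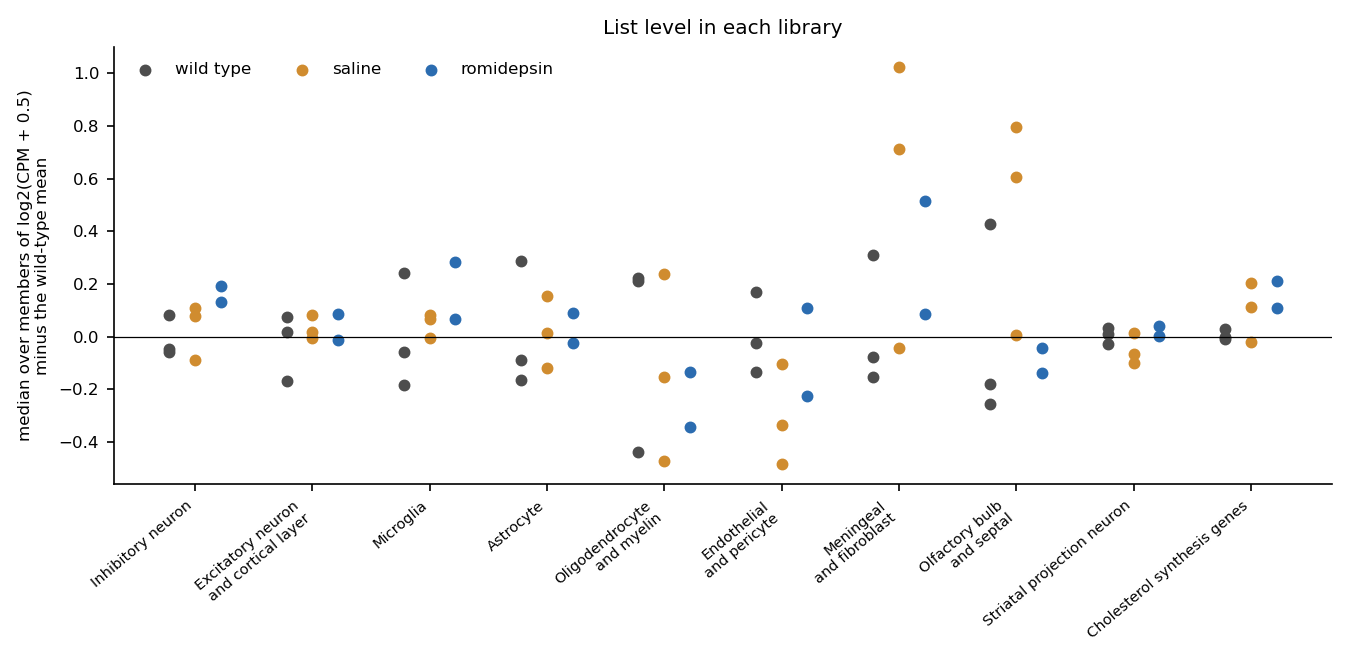
Level of 10 gene lists in each library (points), as the median over members of log2(CPM + 0.5) minus the wild-type mean (vertical axis), by group. Both romidepsin libraries lie above all 3 wild-type libraries for the inhibitory neuron and cholesterol lists, and the meningeal, oligodendrocyte and microglia lists spread widely within groups.

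Among other cell types, 22 astrocyte markers had a median of 0.029 (13 higher, 9 lower), which turned to -0.053 without wild-type replicate 1, -0.042 without wild-type replicate 2 and -0.038 without romidepsin replicate 1. Of these 22, 1 had an unadjusted p under 0.05 (background 3.24%). This was Etnppl, an enzyme of astrocyte phospholipid breakdown, at 16.3, 16.6 and 23.2 CPM in wild type and 10.9 and 11.7 CPM with romidepsin (log2 difference -0.72, unadjusted p = 0.00544). With saline it was at 28.1, 23.6 and 16.8 CPM, so the romidepsin libraries were the lowest of the 8. The 25 excitatory neuron and layer markers had 13 higher and 12 lower (median 0.017), and none had an unadjusted p under 0.05 (background 3.24%). That median turned to -0.078 without wild-type replicate 3 and to -0.027 without romidepsin replicate 2. All 4 tested neurofilament and internexin genes were lower by -0.44 to -0.03, with overlap: Nefm was at 236, 249 and 143 CPM in wild type and 134 and 175 CPM with romidepsin. In wild type, replicate 3 had the least Nefm. All 4 of these genes were also lower in saline against wild type, with a median of -0.414 against -0.117 with romidepsin.

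Markers of regions next to the prefrontal cortex were read for tissue carried along. The 18 striatal projection neuron markers had a median of 0.041, with 12 higher, and -0.006 without romidepsin replicate 2. Penk, the leading one, is also made by cortical interneurons. The 15 olfactory bulb and septal markers had a median of -0.139, against 0.439 with saline, and it turned to 0.109 without wild-type replicate 3 and to 0.020 with the replicate number as a block. The 9 thalamic and hypothalamic markers had a median of -0.045, which turned to 0.040 without wild-type replicate 2. Only 4 of 14 choroid plexus and ependymal markers were tested, and the summed level of the list was between 11.52 and 16.07 CPM in the 5 libraries. Of 6 red blood cell markers, Hba-a1, Hba-a2, Hbb-bs and Hbb-bt were listed at 0 in all 8 libraries.

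Lists of synaptic genes, the setting in which SHANK3 acts, had medians close to that of all genes. Of 7 NMDA receptor subunits, 5 were higher (median 0.056), with Grin3a above the wild-type range, while Grin1, the obligatory subunit, was at 554, 496 and 445 CPM in wild type and 522 and 527 CPM with romidepsin (log2 difference 0.07). The median of these subunits turned to -0.035 without romidepsin replicate 2, with 2 of 7 higher, to -0.010 without wild-type replicate 3 and to -0.002 with the replicate number as a block. Grin2a and Grin2b, the main regulatory subunits of cortex, differed by 0.15 and 0.06, with overlap. Of 11 AMPA, kainate and delta receptor subunits, 7 were higher (median 0.043). Grik1, a kainate receptor subunit common in interneurons, was at 14.1, 14.6 and 15.5 CPM in wild type and 18.5 and 20.6 CPM with romidepsin (log2 difference 0.41, SE 0.14, unadjusted p = 0.013). Medians were 0.028 for 7 metabotropic glutamate receptors and 0.017 for 14 GABA receptor subunits. These turned to -0.009 without romidepsin replicate 2 and to -0.029 without wild-type replicate 3, in that order. Neither list had a gene at an unadjusted p under 0.05 (background 3.24%), and lists this short may hold none at that share.

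Of 34 postsynaptic scaffold genes, 22 were higher (median 0.027), and 16 without wild-type replicate 2 (median -0.009). Dlg4, which encodes PSD-95, was at 904, 867 and 929 CPM in wild type and 981 and 988 CPM with romidepsin (log2 difference 0.13), and Nlgn2, the neuroligin of inhibitory synapses, at 262, 246 and 228 CPM in wild type and 274 and 272 CPM with romidepsin (log2 difference 0.16). Both lay just above the wild-type range, and Tanc1 below it. Of 32 presynaptic genes, 27 were higher (median 0.059), led by the active zone organizer Rims1 at 213, 225 and 212 CPM in wild type and 253 and 235 CPM with romidepsin (log2 difference 0.17). Without wild-type replicate 3, 16 of the 32 were higher (median 0.002). Of 41 voltage-gated ion channel genes, 26 were higher (median 0.045), but without wild-type replicate 3 there were 16 (median -0.022). Kcnt1, a sodium-activated potassium channel, was lower at 142, 147 and 146 CPM in wild type and 129 and 116 CPM with romidepsin (log2 difference -0.24, unadjusted p = 0.0335).

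Of 58 actin regulators, through which SHANK3 acts on spines, 30 were higher and 28 lower (median 0.003, and -0.022 without wild-type replicate 3). Cfl1, the actin-severing protein cofilin, was at 844, 782 and 716 CPM in wild type and 810.3 and 810.5 CPM with romidepsin, and the small GTPase Rac1 at 280.0, 267 and 258 CPM in wild type and 272 and 277 CPM with romidepsin. Both stayed within the wild-type range. The 20 Rap GTPases and regulators had a median of -0.033, with none at an unadjusted p under 0.05 (background 3.24%). Of 34 activity-induced genes, 18 were higher and 16 lower (median 0.019), and the median turned to -0.072 without wild-type replicate 2 and to -0.054 without romidepsin replicate 2. Besides Fosb, the kinase gene Sik1 was apart, at 16.6, 14.5 and 17.2 CPM in wild type, 21.9 and 22.6 CPM with romidepsin and 20.4, 22.8 and 27.8 CPM with saline (log2 difference 0.47, unadjusted p = 0.0057). Fos was at 47.6, 38.9 and 43.0 CPM in wild type, 41.2 and 40.2 CPM with romidepsin and 47.0, 71.3 and 64.5 CPM with saline, so the romidepsin libraries lay within the wild-type range.

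Chromatin genes as groups were near the median of all genes. The 24 genes known to rise on deacetylase inhibition in many cell types had 14 higher and 10 lower (median 0.029). Without wild-type replicate 2 that median was -0.004. In edgeR 0 of the 24 had an unadjusted p under 0.05 (background 3.24%). At that share a list of this size may hold none, so the 0 is no result about these genes. Cdkn1a, the cell cycle inhibitor p21 and a classic target of such drugs, was at 44.1, 41.4 and 35.7 CPM in wild type and 32.5 and 40.7 CPM with romidepsin. Of 20 acetyltransferases and acetyl-lysine readers, 13 were higher (median 0.018, and -0.010 without romidepsin replicate 2). Brd9, a bromodomain subunit of the non-canonical BAF remodeler, was lower, at 88.2, 91.6 and 84.0 CPM in wild type and 70.7 and 76.0 CPM with romidepsin (log2 difference -0.26, SE 0.08, unadjusted p = 0.00744). With saline it was at 74.2, 71.7 and 76.6 CPM. The 38 histone and DNA methylation genes and remodelers had a median of 0.011, and of -0.031 without wild-type replicate 2.

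Beta-catenin signals downstream of Wnt ligands and Frizzled receptors and is degraded with the help of APC. Of 32 genes of this pathway, 18 were higher and 14 lower (median 0.046), 4 had an unadjusted p under 0.05 (background 3.24%), and 7 lay above and 2 below all wild-type libraries (background 9.34% and 9.08%). Beside the ligand Wnt7b, the receptor Fzd7 was at 3.62, 4.37 and 5.72 CPM in wild type and 7.88 and 6.28 CPM with romidepsin (log2 difference 0.63). Apc was at 648, 693 and 782 CPM in wild type and 837 and 806 CPM with romidepsin (log2 difference 0.22), and Rnf43, a ligase that removes Frizzled from the membrane, at 3.37, 3.01 and 2.67 CPM in wild type and 1.77 and 1.75 CPM with romidepsin (log2 difference -0.77).

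Of 61 cytosolic ribosomal protein genes, 51 were higher by a small amount (median 0.060), led by Rps2 at 309.6, 283 and 310.4 CPM in wild type and 345 and 414 CPM with romidepsin and Rps4x at 199, 187 and 206 CPM in wild type and 232 and 227 CPM with romidepsin. The number was 37 without wild-type replicate 2 (median 0.010) and 38 without romidepsin replicate 1 (median 0.032). In saline against wild type, 59 of the 61 were higher (median 0.082). Of 72 nuclear-encoded oxidative phosphorylation genes, 46 were higher (median 0.029), but without wild-type replicate 3 there were 27 (median -0.021). Saline against wild type had 54 of the 72 higher (median 0.05). Of 28 heat shock and endoplasmic reticulum stress genes, 22 were lower (median -0.078), with Sdf2l1, a cofactor of the chaperone BiP, at 14.2, 23.9 and 16.4 CPM in wild type and 12.8 and 14.0 CPM with romidepsin (log2 difference -0.44). Without romidepsin replicate 1 the direction of that list turned, with 17 higher and a median of 0.027, and without wild-type replicate 2 it was 14 higher and 14 lower. Saline against wild type also had 22 of the 28 lower (median -0.132). The 22 glucocorticoid and stress responsive genes had 11 higher and 11 lower. Fkbp5, a glucocorticoid-induced co-chaperone, was at 24.1, 26.1 and 28.7 CPM in wild type and 26.8 and 39.3 CPM with romidepsin, with romidepsin replicate 2 alone above the wild-type range.

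**Figure D5:**
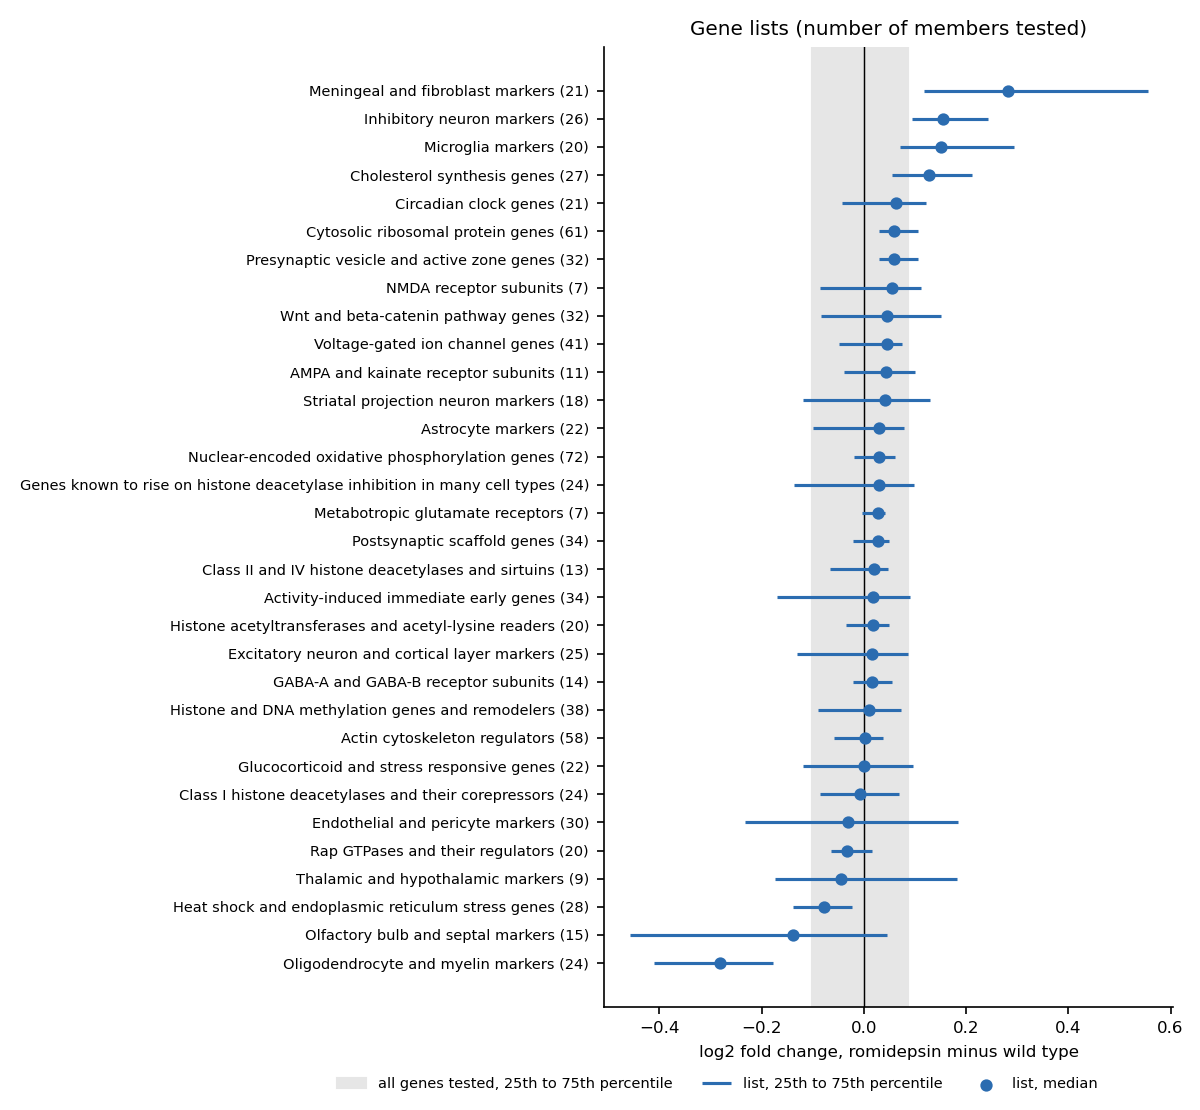
Median (point) and 25th to 75th percentile (line) of the log2 fold change of romidepsin against wild type (horizontal axis) over the tested members of each of 32 gene lists, whose number is in brackets, with the same percentiles of all 14809 genes in gray. The meningeal, inhibitory neuron, microglia and cholesterol lists have the highest medians, and the oligodendrocyte list the lowest, at -0.281.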

How the data were processed

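RNA was sequenced as poly(A) libraries from prefrontal cortical slices. Each deposited table gives 1 library's unnormalised counts of reads for each gene symbol. Per the submitters' processing notes, bcl2fastq 2.17.1.14, TopHat2 2.1.1, HTSeq 0.6.1 and the build mm10/GRCm38 were used. The annotation and the setting for strand were not given in sources used here. In the 7 libraries with HTSeq's summary entries, 32.4% to 35.3% of counted alignments fell on genes and 15.5% to 18.1% were not unique. Those entries were left out.

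From the counts, edgeR 4.0.16 in R 4.3.3 was fitted to all 8 libraries, with a term per group, TMM scaling, filterByExpr (14809 of 24420 genes kept) and a robust quasi-likelihood test of romidepsin minus wild type. The common biological coefficient of variation was 9.33%. Alternatives were other scalings, other filters, DESeq2 1.42.0, limma-voom (limma 3.58.1), a non-robust fit, a replicate block, Rn45s left out, only the groups compared, and each library left out. All libraries differed pairwise beyond sampling noise.

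Named genes were Shank3, Rabl2, Hdac1, Hdac2, Hdac3, Ctnnb1, the 15 per direction that passed or had the smallest p, 10 by saline against wild type, and the 2 to 4 members of each list described with the smallest p. Of the additions, pseudogenes and predicted genes were left out, and a mean log2 CPM of at least 1 was required. Other genes were named after their values were seen, as textbook members of a list or neighbours of a named gene. The comparison, 35 gene lists and tests were chosen with earlier results of these data known, so lists are described by counts and medians only. Of the lists' 861 genes, 828 were tested. A few members count in their lists but are not reported here by name. Of 43 named genes looked up, 30 were in the promoter table.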

Additional observations from a re-analysis of the deposited data

How the results depend on the processing

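Of 160 named genes, 148 kept their direction and their side of the threshold in every alternative, and 9 changed direction in at least 1. Of 32 lists, 23 kept a median within the spread between libraries, although medians of 20 lists, most of them near 0, changed sign in at least 1 alternative, 11 kept it in all, and the glucocorticoid list, at 0.0, ranged from -0.107 to 0.119. The number of genes that passed, 1 in the analysis reported, was 0 with upper-quartile scaling, 2 without a low-count filter, 4 in DESeq2 (Tmem181b-ps, Lag3, Gm3893 and Dbp) and 0 to 3 without single libraries: Lag3 and Egr3 without wild-type replicate 3, Mid1, H2-T10 and Gm5177 without romidepsin replicate 1, and Gm3893 without romidepsin replicate 2, where the lone library is assumed to vary like the other groups. Genes at an unadjusted p under 0.05, 480 in the analysis reported, numbered 289 in DESeq2 and 308 to 840 without single libraries. The cause of these shifts was not tested.

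Correlations of same-numbered libraries' deviations from their group means ran from -0.175 to 0.103, and those of differently numbered libraries from -0.156 to 0.236. With 2 romidepsin libraries, their deviations mirror each other. This check therefore cannot settle whether replicate numbers pair the libraries. With the replicate number as a block, 0 genes passed, 381 had an unadjusted p under 0.05, and medians were 0.2331 for inhibitory neuron markers, -0.112 for oligodendrocyte markers and -0.0312 for class I deacetylases and corepressors, and Shank3 turned to 0.0281 and Hdac3 to 0.0057.

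Without single libraries, medians ranged as follows: -0.0061 to 0.0414 for striatal projection neuron markers, 0.1258 to 0.2536 for inhibitory neuron markers, -0.0093 to 0.0329 for postsynaptic scaffold genes, -0.0718 to 0.0616 for activity-induced immediate early genes, 0.0308 to 0.1181 for circadian clock genes, -0.0203 to 0.0332 for Class I histone deacetylases and their corepressors, -0.049 to 0.0204 for Class II and IV histone deacetylases and sirtuins, -0.0429 to -0.0169 for Rap GTPases and their regulators and 0.0967 to 0.2104 for cholesterol synthesis genes. Log2 differences that changed direction without single libraries ranged from -0.0657 to 0.039 for Shank3, -0.0853 to 0.0484 for Hdac3, -0.1681 to 0.006 for Prss23, -0.013 to 0.4198 for Pou3f1, -0.0192 to 0.3051 for Grin2a, -0.4099 to 0.0975 for Grm4, -0.1095 to 0.1773 for Grm2, -0.027 to 0.1659 for Gabra4 and -0.5627 to 2.9817 for Lcn2, whose sign rests on romidepsin replicate 2. At 10143846 and 9855883 counts per romidepsin library, a gene at 1 CPM has about 10 counts, so differences in such genes were not detectable unless large.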

Other observations

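Several genes outside the rule for naming stood out and were chosen after their values were seen. The neutrophil genes S100a8 and S100a9, which encode the subunits of calprotectin, had few reads but more with romidepsin: S100a8 had 1, 3 and 0 counts in wild type, 8, 8 and 0 with saline and 14 and 15 with romidepsin, and S100a9 had 2, 9 and 0, then 14, 7 and 2, then 15 and 32. Their unadjusted p in edgeR was 7.62e-04 and 0.00106, and the adjusted p of both was 0.999. Ccr1, a chemokine receptor of myeloid cells, had 1, 0 and 5 counts in wild type, 10, 5 and 6 with saline and 11 and 11 with romidepsin. Both romidepsin libraries were above all wild-type libraries for these 3 genes.

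Romidepsin replicate 2 stood alone for another set. H2-T10, a nonclassical MHC class I gene, had 126 counts there and 16 in romidepsin replicate 1, against 22, 23 and 15 in wild type. Mid1, an X-linked ubiquitin ligase gene that spans the pseudoautosomal boundary in mice, had 876 counts there and 345 in replicate 1, against 268, 370 and 415. Gm5177 had 75 and 6 counts, against 2, 3 and 0. Lcn2, which encodes the acute-phase protein lipocalin 2, had 113 and 10 counts, against 4, 29 and 23, and 65 in saline replicate 2.

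Gm3893, a predicted gene that DESeq2 called, had 65, 78 and 88 counts in wild type, 348, 153 and 180 with saline and 233 and 91 with romidepsin, so replicate 2 had the smaller count of its group. Its log2 difference from wild type was 1.41 (SE 0.32).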
